A study of Mus musculus with 36 samples.

Results

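Liver from outside the tumours of AKT-CAT mice given DDC (NonTu_AKTCAT_DDC, 3 arrays) was set against liver of mice given DDC with no tumour model (DDC_only, 3 arrays), 6 of the 36 single-colour bead arrays of the series. All animals were of the strain FVB/n. AKT-CAT names a tumour model by its driver genes. CAT was taken to mean beta-catenin, although no label says so. DDC is a compound fed to mice that is known to injure bile ducts and to make hepatocytes accumulate porphyrin, and both groups compared here carried it. Other groups served as context: 4 arrays of AKT-CAT tumours with DDC (Tu_AKTCAT_DDC), 3 of non-tumoral AKT-CAT liver without DDC (NonTu_AKTCAT) and 3 of liver from PBS controls (PBS_only). The labels used here give no dose or duration of DDC, no way in which the driver genes were introduced, no promoter, and no age or sex, and they do not say that the arrays of a group came from separate animals. The p-values therefore reflect only the spread between samples of a group, which may be technical. That spread was estimated for each gene over all 36 arrays, not from the 6 compared arrays alone. The labels call the tissue non-tumoral and do not say how far from a tumour it was taken.

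The compared groups lay on different slides. DDC_only was on slide 1, with PBS_only and 2 of the Tu_AKTCAT_DDC arrays. NonTu_AKTCAT_DDC was on slide 2, with the remaining Tu_AKTCAT_DDC arrays and 3 arrays of untreated AKT-CAT tumours, while NonTu_AKTCAT was on slide 3. No value of the comparison exists within a slide. A fit with slide as a block could be made only because the DDC-treated tumours lay on both slides, so that its slide effect rests on 2 tumour arrays against 2. Its value is given below for only part of the calls that it ends. Of the 1650 genes called without it, 59 were also called with it, so a call given without its value is not to be read as kept. The 6 arrays detected between 11822 and 12413 of 25697 probes (46.0% to 48.3%), and the rank correlation of their signals was 0.872 to 0.881 within NonTu_AKTCAT_DDC, 0.899 to 0.908 within DDC_only and 0.854 to 0.883 between the groups. With 3 arrays a group, the number of arrays limits the precision.

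The liver lobule is divided into zones. Hepatocytes next to the central vein receive Wnt signals, hold active beta-catenin and make glutamine from ammonia, while hepatocytes next to the portal vein make urea and glucose and keep beta-catenin activity low. Beta-catenin acts with TCF/LEF factors, which bind DNA, and genes such as Axin2 and Sp5 are used as readouts of the pathway in many tissues. A DDC diet is known to bring a ductular reaction, inflammation and scarring around the portal vein.

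Non-tumoral AKT-CAT liver with DDC had higher levels of pericentral and Wnt target genes and lower levels of periportal genes than liver with DDC alone. Of 18 tested members of the list of pericentral genes and Wnt targets, 11 were higher, none was lower and 7 did not pass, where 8.95% of all 10765 genes tested were called higher and 6.38% lower (15.3% in either direction, limma, Benjamini-Hochberg adjusted p under 0.05). Of 14 periportal members 9 were lower, none was higher and 5 did not pass. The median difference was 1.41 on the log2 scale over the 18 pericentral and Wnt members and -1.18 over the 14 periportal members, against 0.09 over all genes. With slide as a block, where 0.567% of genes were called, 4 pericentral and Wnt members and 2 periportal members were called, and the medians were 1.17 and -1.09.

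Promoters of 4 of the 11 higher members are shown because these are the genes of the list with the largest differences that had a window in the reference table, and because Axin2 is the usual readout of the pathway. Each is the stretch from 250 bases before to 50 bases after the annotated start, read 5′ to 3′ on the gene's strand, from RefSeq on build GRCm38.p6. Capitals mark the core letters of a TCF/LEF motif, searched as CTTTGA or CTTTGT on both strands. Slc1a2 lies at chr2:102706188-102706487, Sp5 at chr2:70474673-70474972, Axin2 at chr11:108920099-108920398 and Glul at chr1:153899679-153899978, all on the plus strand.
Slc1a2: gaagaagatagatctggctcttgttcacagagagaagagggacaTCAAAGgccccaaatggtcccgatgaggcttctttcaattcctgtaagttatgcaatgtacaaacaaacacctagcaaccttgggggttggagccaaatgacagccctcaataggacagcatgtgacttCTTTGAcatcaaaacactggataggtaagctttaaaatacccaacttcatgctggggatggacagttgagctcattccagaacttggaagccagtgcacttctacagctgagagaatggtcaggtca
Sp5: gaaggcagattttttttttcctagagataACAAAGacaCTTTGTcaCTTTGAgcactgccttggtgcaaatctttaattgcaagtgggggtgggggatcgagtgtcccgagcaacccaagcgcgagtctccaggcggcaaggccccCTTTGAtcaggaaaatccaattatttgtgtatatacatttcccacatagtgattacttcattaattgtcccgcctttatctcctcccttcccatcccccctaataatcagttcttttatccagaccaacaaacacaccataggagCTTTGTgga
Axin2: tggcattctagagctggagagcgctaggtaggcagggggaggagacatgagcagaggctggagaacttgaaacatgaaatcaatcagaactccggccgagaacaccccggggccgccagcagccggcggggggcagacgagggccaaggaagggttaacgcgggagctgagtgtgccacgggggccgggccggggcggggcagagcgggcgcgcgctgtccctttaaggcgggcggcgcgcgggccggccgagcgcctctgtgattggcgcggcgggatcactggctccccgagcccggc
Glul: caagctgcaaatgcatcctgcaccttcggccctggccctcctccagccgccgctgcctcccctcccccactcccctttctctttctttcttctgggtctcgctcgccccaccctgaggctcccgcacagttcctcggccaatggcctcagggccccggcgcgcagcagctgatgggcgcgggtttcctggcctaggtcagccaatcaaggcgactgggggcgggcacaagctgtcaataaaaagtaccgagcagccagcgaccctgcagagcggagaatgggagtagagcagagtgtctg
The Sp5 window holds 5 matches and the Slc1a2 window 2, and the Axin2 and Glul windows hold none. Of the 11 higher members 6 had a window (Oat and Rnf43 besides these), and 2 of the 6 hold a match, as do 10249 of all 32851 windows (31.2%). A match is a run of letters and no sign of binding, and a window without one says nothing of the factor.

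Slc1a2, a glutamate transporter that in liver is found in pericentral hepatocytes, had the largest rise of all genes named here. Its normalised intensity on the log2 scale was 12.68, 12.54 and 12.74 on the 3 NonTu_AKTCAT_DDC arrays and 7.49, 7.14 and 8.58 on the 3 DDC_only arrays. All 3 non-tumoral arrays lay within a narrow band far above the 3 DDC_only arrays. The difference was 4.92 ± 0.70 (log2, SE of the fit), 30.2-fold, with limma adjusted p = 2.2e-05, and 5.19 with slide as a block (adjusted p = 0.0252). Of its 4 probes, 3 gave 4.92, 4.44 and 4.23 and the other, near background with a mean of 4.84 over the 36 arrays, 0.26. Slc1a2 averaged 11.29 in NonTu_AKTCAT, 10.91 in PBS_only and 10.30 in Tu_AKTCAT_DDC, so the DDC_only arrays held the lowest mean of these groups and the NonTu_AKTCAT_DDC arrays the highest.

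Glul, the glutamine synthetase that marks the hepatocytes nearest the central vein, was at 8.10, 8.52 and 9.15 in NonTu_AKTCAT_DDC and at 4.48, 4.80 and 4.56 in DDC_only. It was not detected on any DDC_only array and lay at least 11.1-fold higher in the non-tumoral group (limma adjusted p = 1.29e-05). The bound sets the mean of the bright group against the lowest signal counted as detected. With slide as a block the Glul difference was 2.82, with adjusted p = 0.137. Rhbg, an ammonium transporter of pericentral hepatocytes, was at 10.66, 10.88 and 10.83 against 8.07, 7.55 and 8.53. The groups did not overlap, and Rhbg differed by 2.74 ± 0.36 (adjusted p = 8.44e-06) and by 2.77 with slide as a block (adjusted p = 0.0217).

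Axin2, a scaffold of the complex that degrades beta-catenin and itself a target of the pathway, was at 9.95, 9.67 and 9.71 in NonTu_AKTCAT_DDC and at 6.94, 6.45 and 6.85 in DDC_only. Every non-tumoral array was above every DDC_only array, by 3.03 ± 0.37 between the means (8.18-fold, adjusted p = 2.57e-06; 2.63 and 0.0255 with slide as a block). Tbx3, a transcription factor under beta-catenin control in liver, was at 10.48, 10.78 and 11.14 against 7.55, 7.70 and 7.79. Its 3 values in each group lay close together, and its difference of 3.12 ± 0.32 had adjusted p = 2.69e-07 (2.75 and 0.00762 with slide as a block). Sp5, a zinc finger factor induced by Wnt, was at 9.25, 9.41 and 9.69 against 5.76, 4.79 and 5.58, and it was detected on 2 of 3 DDC_only arrays. Its groups were separated by more than 3 log2 units, and the difference of 4.07 ± 0.61 had adjusted p = 3.93e-05, but 3.26 with slide as a block had adjusted p = 0.129.

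The other 5 higher members rose less, and 9 to 11 of the list were higher when a single array was left out. Named here to complete the list, outside the naming rule, they were Oat (an ornithine aminotransferase, 2.34), Rgn (regucalcin, 2.14), Lgr5 (a receptor for R-spondins, 1.71), Rnf43 (a ubiquitin ligase that removes Wnt receptors, 1.0) and Gulo (an enzyme of vitamin C synthesis, 0.90), and none of these 5 was called with slide as a block. Rgn was detected on 2 and Lgr5 on 1 of 3 DDC_only arrays. Among the 7 that did not pass, Cyp2e1, a pericentral cytochrome near the top of the array's range, was at 14.81, 14.95 and 14.89 against 14.67, 14.09 and 14.03, a difference of 0.62 ± 0.48. Cyp1a2 differed by 0.92 ± 0.63 and Cyp27a1 by 0.00 ± 0.34, with adjusted p of 0.351 and 0.997. The 3 are cytochromes that already had high levels in DDC_only. The summed intensity of the 18 members on the linear scale was 108027 to 112595 in NonTu_AKTCAT_DDC and 44272.4 to 57863.2 in DDC_only, with no overlap.

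**Figure D1:**
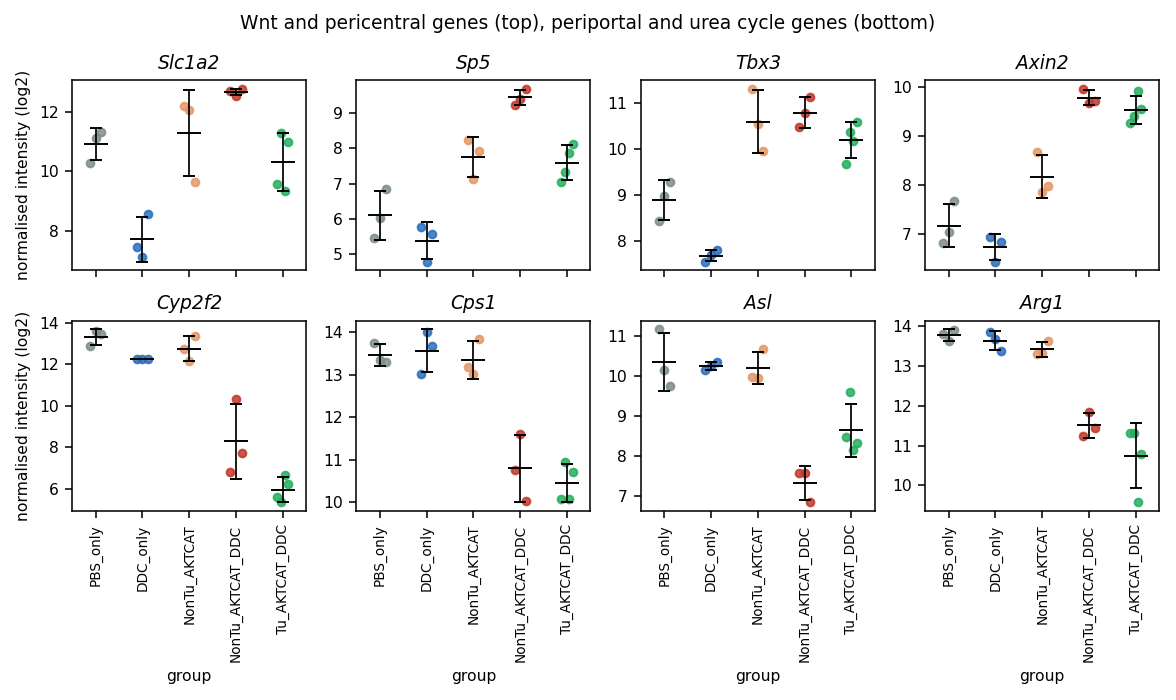
Normalised intensity (log2, vertical axis) of 4 pericentral or Wnt genes (top) and 4 periportal or urea cycle genes (bottom) in 5 groups, each point 1 array, with the group mean and SD in black. Slc1a2 lies between 12.54 and 12.74 in NonTu_AKTCAT_DDC and between 7.14 and 8.58 in DDC_only, and Cyp2f2 runs the other way.

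Cyp2f2, a cytochrome of periportal hepatocytes, had the largest fall. It was at 6.79, 10.30 and 7.73 in NonTu_AKTCAT_DDC and at 12.26, 12.27 and 12.23 in DDC_only. The DDC_only arrays were almost equal, while the non-tumoral arrays were spread over more than 3 log2 units and all lay below them. The difference was -3.98 ± 0.71 (15.8-fold lower, adjusted p = 0.000353), and -4.95 with slide as a block (adjusted p = 0.0337). Hal, the first enzyme of histidine breakdown, showed the same array as the highest of its group, with 5.39, 8.29 and 6.39 against 8.46, 8.29 and 8.57. Its groups touched at the second array of each. Its difference of -1.75 (adjusted p = 0.0338) was -1.11 without NonTu_AKTCAT_DDC 1 (adjusted p = 0.213), and the call was also lost without NonTu_AKTCAT_DDC 3 or any 1 DDC_only array (adjusted p = 0.0713 to 0.112). Uroc1, the next enzyme of the same route and named because it was called with slide as a block, fell by 1.10 (adjusted p = 0.023) and by 2.14 with slide as a block.

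The urea cycle turns ammonia into urea in periportal hepatocytes. Of its 8 tested genes 5 were lower, none was higher and 3 did not pass, with a median of -1.48. Cps1, the mitochondrial enzyme that opens the cycle, was at 10.75, 11.61 and 10.02 in NonTu_AKTCAT_DDC and at 13.01, 13.99 and 13.67 in DDC_only. Asl, which splits argininosuccinate, was at 7.57, 7.58 and 6.86 against 10.15, 10.26 and 10.35. Arg1, which releases urea, was at 11.23, 11.84 and 11.44 against 13.84, 13.66 and 13.38. All 3 genes were lower on every non-tumoral array than on any DDC_only array, by 2.76 ± 0.49, 2.92 ± 0.47 and 2.12 ± 0.32 on the log2 scale (adjusted p = 0.000318, 0.000113 and 4.9e-05). With slide as a block the differences were -2.65, -2.12 and -0.99, with adjusted p of 0.141, 0.226 and 0.345.

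Nags, which makes the activator of Cps1, differed by -2.0 ± 0.42 (adjusted p = 0.00156), and Slc25a15, the ornithine carrier, by -0.95 ± 0.33 (adjusted p = 0.0499, and 0.0504 to 0.224 without any 1 array but NonTu_AKTCAT_DDC 1). Ass1, which joins citrulline to aspartate, was at 13.57, 13.75 and 12.80 against 14.03, 13.80 and 13.25, and its difference of -0.32 ± 0.41 did not pass. Otc (-0.49 ± 0.41) and the aspartate carrier Slc25a13 (-0.02 ± 0.32) did not pass either. Of the enzymes of the cycle, Cps1, Asl and Arg1 were thus called, and Otc and Ass1 were not. No urea cycle gene was called with slide as a block. Of the other periportal genes, Aldh1b1, a mitochondrial aldehyde dehydrogenase, was at 7.88, 7.98 and 7.75 against 9.58, 10.03 and 10.05 (-2.02 ± 0.53, adjusted p = 0.0101, and -0.98 and 0.583 with slide as a block). Pigr (-0.24 ± 0.30) and Igfals (-0.02 ± 0.30) did not pass, and all 14 periportal members had a difference below 0.

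General hepatocyte genes were read against the shares of all genes. Of 19 tested plasma protein and identity genes none was higher, 3 were lower (Cps1, Fgg by -0.96 and F2 by -0.54) and 16 did not pass, so 15.8% were called against 15.3% of all genes, each of them lower, as were 6.38% of all genes, with a median of -0.13. Fgg was not called without DDC_only 2 (adjusted p = 0.0529), nor was F2 without NonTu_AKTCAT_DDC 1 or 3 or DDC_only 2 or 3 (0.0847 to 0.107), and the list gave 1 call without DDC_only 2. Apoa2, an apolipoprotein, lay between 14.74 and 15.17 on all 6 arrays and Trf, transferrin, between 14.78 and 15.21. Of 23 cytochromes of families 1 to 3, none was higher and 2 were lower. In bulk tissue, fewer cells of a type and less RNA per cell cannot be told apart, and this holds for every list here.

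The same 2 sets of genes were compared with the tumours and with the groups without DDC. Axin2 averaged 9.78 in NonTu_AKTCAT_DDC, 9.52 in Tu_AKTCAT_DDC, 8.17 in NonTu_AKTCAT and 7.18 in PBS_only. Tbx3 averaged 10.80 in NonTu_AKTCAT_DDC, 10.20 in the tumours with DDC, 10.60 in NonTu_AKTCAT and 8.89 in PBS_only. For both genes the non-tumoral liver was above its control with and without DDC. Glul averaged 8.59 in NonTu_AKTCAT_DDC and 5.75 in the tumours with DDC, and Sp5 averaged 9.45 and 7.59. Cps1 averaged 10.79 in NonTu_AKTCAT_DDC, 10.45 in the tumours with DDC, 13.34 in NonTu_AKTCAT and 13.46 in PBS_only. Both AKT-CAT groups with DDC were thus low and both groups without DDC were high. DDC_only, with the Cps1 values given above, was high as well, so Cps1 was not low in every group with DDC.

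Genes known as high in AKT-CAT tumours were partly higher in the non-tumoral liver as well. This list was drawn from earlier results on these arrays and is no independent evidence of a direction. Of its 15 tested members 6 were higher, 2 were lower and 7 did not pass, and 3 of the 6 were called with slide as a block. Leaving out NonTu_AKTCAT_DDC 1 or DDC_only 2 left 4 higher and 1 lower, and without NonTu_AKTCAT_DDC 2 or DDC_only 1 it was 5 and 0. Sdcbp2, a syntenin, was at 11.08, 10.65 and 11.58 against 7.70, 6.82 and 8.55, a difference of 3.41 ± 0.39 (adjusted p = 9.55e-07, and 3.53 and 0.00762 with slide as a block). Nipal2 was at 10.78, 10.45 and 10.70 against 8.95, 8.68 and 8.63, a difference of 1.89 ± 0.25 (adjusted p = 8.44e-06, and 1.70 and 0.0359 with slide as a block). Ang4, an angiogenin, was at 10.67, 10.40 and 10.96 against 7.87, 7.59 and 7.57, a difference of 3.0 ± 0.51 (adjusted p = 0.000205, and 2.90 and 0.0891 with slide as a block).

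These 3 genes ran in a common order across the groups. Sdcbp2 averaged 4.42 in PBS_only, 5.15 in NonTu_AKTCAT, 7.69 in DDC_only, 11.10 in NonTu_AKTCAT_DDC and 12.14 in Tu_AKTCAT_DDC. Ang4 averaged 5.05, 5.15, 7.67, 10.68 and 11.07 in the same order, and Nipal2 4.60, 4.63, 8.75, 10.64 and 11.38. The first 2 means of each gene lay close together, DDC_only lay between, and the non-tumoral liver with DDC lay nearest the tumours. Those first 2 means lay near background, where signals differ little, so their closeness is no measure of likeness. Other members, chosen after their values were seen, did not: Foxr2, not detected on any of the 6 arrays, averaged 4.48 in NonTu_AKTCAT_DDC and 7.21 in the tumours with DDC, Scd2 5.75 and 8.45, and Asns, asparagine synthetase, 5.39 and 8.65. Guca2a, the gut peptide guanylin, was lower in the non-tumoral liver (-1.99, adjusted p = 0.00908), a call lost without NonTu_AKTCAT_DDC 2 (0.0737) or DDC_only 1 (0.0581). How many tumour cells the non-tumoral pieces held was not tested.

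Besides the Wnt genes, the 12 largest rises held 7 genes of other kinds. Elfn2, a phosphatase inhibitor at synapses, was at 9.05, 7.62 and 8.23 and was not detected on any DDC_only array, at least 9.11-fold higher (adjusted p = 1.69e-07, and a difference of 3.70 with adjusted p = 0.00584 with slide as a block). Mogat1 and Mogat2 add a fatty acid to monoacylglycerol. Mogat1 was at 8.05, 7.83 and 7.98, and as it was not detected on any DDC_only array it lay at least 7.16-fold higher. Mogat2, detected on 2 of 3 DDC_only arrays, differed by 3.15. Clstn3, a calsyntenin, differed by 3.43 and Adam32, a metalloprotease-like protein, by 2.99. Both were called with slide as a block, but a second Clstn3 probe gave -0.06. That probe was dim, with a mean of 5.29 over the 36 arrays against 7.44 for the first. In all, 9 of the 12 largest rises were called with slide as a block, the exceptions being Sp5, Glul and Ang4.

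The 12 largest falls held Rbbp7 (a histone chaperone, -3.31), Cyp2b10 (a drug-induced cytochrome, -3.25), Aspg (an asparaginase, -3.15), Serpina1c (an alpha-1-antitrypsin, -3.08), Rtn4 (a reticulon of the endoplasmic reticulum, -3.07), Acaa2 (a thiolase of mitochondrial fatty acid oxidation, -2.97), Lum (lumican, a matrix proteoglycan, -2.85), Glud1 (glutamate dehydrogenase, -2.84) and Smpdl3b (a phosphodiesterase, -2.73) beside Cyp2f2, Asl and Cps1. Only Cyp2f2, Serpina1c (-3.64, adjusted p = 0.022) and Smpdl3b (-2.73, adjusted p = 0.00762) of the 12 were called with slide as a block. Cyp2b10 lost its call without NonTu_AKTCAT_DDC 1 or 3 and without DDC_only 2 (adjusted p = 0.0544, 0.0945 and 0.107). Its second probe gave -0.02, but at a mean of 4.85 over the 36 arrays, near background, it could show little of a fall. Probes of near-identical family members, such as the Mup, Serpina1, Cyp2b and Cyp4a genes, may read more than 1 of them.

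Probes of 1 gene did not always give the same difference. Of 2834 genes with more than 1 probe, 144 had probes whose differences lay at least 2 log2 units apart. The count was 51 for DDC_only minus PBS_only, 22 for NonTu_AKTCAT minus PBS_only and 64 for NonTu_AKTCAT_DDC minus NonTu_AKTCAT. It was 2 for the Tu_AKTCAT_DDC arrays of slide 2 minus those of slide 1. Acaa2 gave -2.97, -3.04, -2.98 and -0.56 with its 4 probes, Rbbp7 -3.31, -3.74, -3.44 and 0.28, and Rtn4 -3.07, -2.12 and -0.65. The last Rtn4 probe averaged 4.69 over the 36 arrays, near background, so it could show little of a fall. The last probes of Rbbp7 and Acaa2 averaged 5.66 and 10.66. For some genes, chosen after their values were seen, a dimmer probe fell where the brightest did not: Hspa8 gave 0.05 and -4.42 and Bdh1 -0.02 and -2.49. Nsdhl went the other way, with -1.09 on its brightest probe and 1.64 on its dimmest. With the mean of all probes of a gene, 916 genes were called higher and 866 lower, beside 963 and 687 with the brightest probe. Large falls thus depend on the probe rule in part. For Cps1 (-2.76 and -3.22), Asl (-2.92 and -2.54) and Glud1 (-2.84 and -3.08) the probes agreed in sign and nearly in size. The part of the probes' positions in this was not tested.

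**Figure D2:**
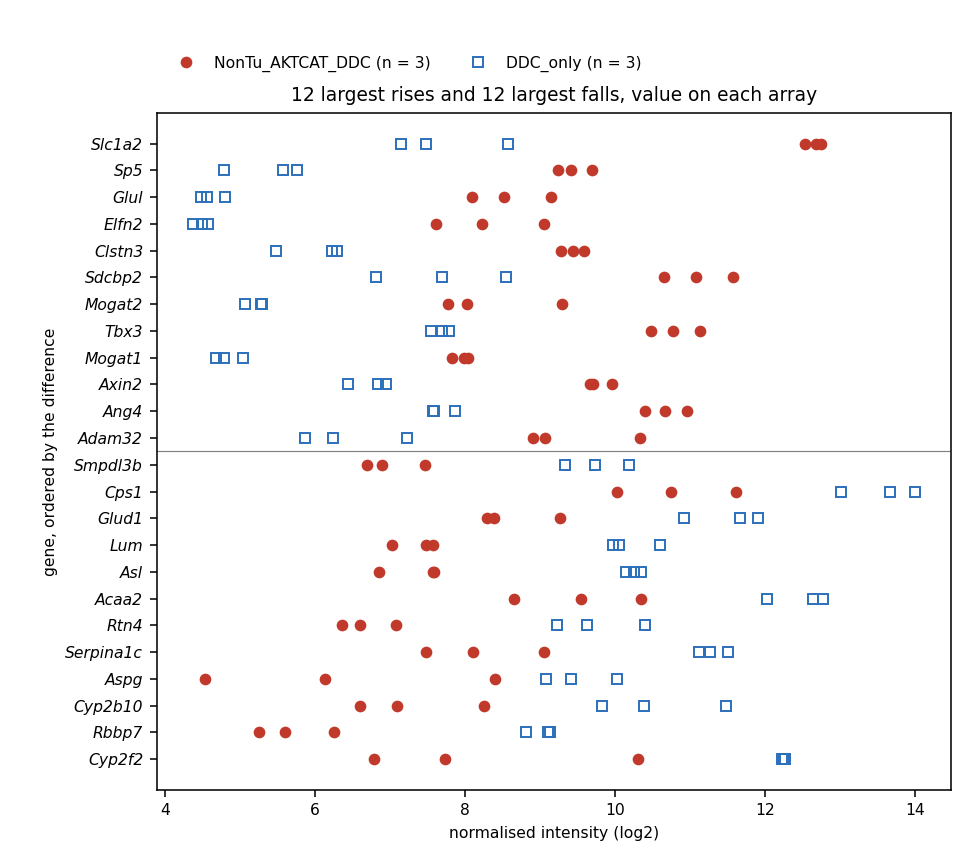
Normalised intensity (log2, horizontal axis) of the 12 genes with the largest rise and the 12 with the largest fall, each symbol 1 array. No gene has overlapping groups, which the rule for naming asked for, and the 3 Cyp2f2 values of NonTu_AKTCAT_DDC run from 6.79 to 10.30.

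Lipid genes were partly higher. Of 18 cholesterol synthesis genes 8 were higher, none was lower and 10 did not pass, with a median of 0.83. Mvd, which makes isopentenyl diphosphate, was at 11.14, 10.86 and 10.21 against 9.41, 7.84 and 8.15 (2.27 ± 0.51, adjusted p = 0.00307). Idi1, the next enzyme, was at 8.16, 7.54 and 8.72 against 6.51, 5.68 and 5.60 (2.21 ± 0.43, adjusted p = 0.000791). Hsd17b7, a later sterol enzyme, was at 13.13, 12.90 and 13.28 against 11.97, 10.77 and 11.40 (1.73 ± 0.25, adjusted p = 2.4e-05). The groups of the 3 genes did not overlap, and with slide as a block their differences were 2.24, 1.30 and 1.46 with adjusted p of 0.297, 0.489 and 0.0964. Hmgcs1 (0.56 ± 0.27), which holds an earlier step of the route, and Sqle (0.28 ± 0.30), which holds a later one, did not pass. Sqle had a second probe of opposite sign (-1.96). Insig1, a brake on the pathway, gave 1.49 on its brightest probe and -1.68 and -1.56 on its others. Its call as higher rests on the brightest probe, and with the mean of its probes the difference was -0.58.

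Of 21 fatty acid synthesis genes 4 were higher, 1 was lower and 16 did not pass, while median scaling in place of quantile normalization gave 7 higher and 1 lower. Me1, the malic enzyme that supplies NADPH, was at 10.33, 10.37 and 11.06 against 8.64, 8.60 and 9.22 (1.77 ± 0.32, adjusted p = 0.000414, and 2.01 and 0.0749 with slide as a block). Elovl5, an elongase, differed by 1.05 ± 0.24, and Agpat2, an enzyme of triglyceride synthesis, by -1.79 ± 0.39 (adjusted p = 0.00398 and 0.0024). Scd1 (0.59 ± 0.32) and Acly (0.39 ± 0.30) did not pass, and none of the 21 genes was called with slide as a block. Of 17 lipid droplet genes 5 were higher and 1 was lower, and 2 of them, Mogat1 and Fitm1, were called with slide as a block; leaving out NonTu_AKTCAT_DDC 3 or DDC_only 2 left 3 higher. Fitm1, which helps droplets form, was at 8.52, 8.39 and 8.43 against 5.82, 5.92 and 6.48, a difference of 2.37 ± 0.28 (adjusted p = 2.29e-06). Cidec, which enlarges droplets, was at 7.24, 7.34 and 8.09 against 5.56, 4.93 and 4.72 (detected on 1 of 3 DDC_only arrays), a difference of 2.49 ± 0.37 (adjusted p = 3.8e-05, and 2.15 and 0.103 with slide as a block). Plin2, the common droplet coat protein, went the other way (-1.27, adjusted p = 0.0122), a call lost without NonTu_AKTCAT_DDC 3 (0.0653) or DDC_only 1 (0.0502).

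Matrix and stellate cell genes were lower in part. Of 29 tested, none was higher, 7 were lower and 22 did not pass, with a median of -0.37, and none was called with slide as a block. Lum was at 7.03, 7.48 and 7.57 in NonTu_AKTCAT_DDC and at 9.97, 10.60 and 10.06 in DDC_only. Vim, the filament protein of mesenchymal cells, was at 7.27, 7.03 and 6.89 against 8.72, 9.27 and 9.56, and Bgn, biglycan, was at 12.16, 12.79 and 12.84 against 13.46, 13.86 and 13.97. The 3 genes were lower on all non-tumoral arrays, by 2.85 ± 0.58, 2.12 ± 0.41 and 1.17 ± 0.26 (adjusted p = 0.00116, 0.000836 and 0.00255). Dcn, decorin, differed by -0.95 ± 0.35 (adjusted p = 0.0601) on its brightest probe and by -2.82 on its second, so its size depends on the probe. Col4a1, a collagen of basement membranes, differed by 0.24 ± 0.29. Without DDC_only 2, 3 members were called, and under median scaling 4. The summed linear intensity of the list was 20532.8 to 26610.7 against 42094.7 to 47597.7.

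Macrophage and Kupffer cell genes had a median of -0.93 over 16 members, of which 5 were lower and 11 did not pass, and 15 of the 16 had a difference below 0. The 5 were C1qc (-1.55), Cx3cr1 (-1.56), C1qa (-1.11), Lyz1 (-0.90) and Fcgr1 (-0.85), with 1 of the list called without NonTu_AKTCAT_DDC 3 or DDC_only 2, 2 or 3 without any other array, 2 under median scaling and none with slide as a block. Each of the 5 lost its call without at least 2 of the single arrays, with adjusted p of up to 0.196 for Fcgr1 (-0.55 without DDC_only 1). Vsig4, a receptor of resident Kupffer cells, averaged 10.49 ± 0.42 (SD, n = 3) against 11.79 ± 0.30 (SD, n = 3), and Clec4f, a further marker of these cells, at 9.43, 10.44 and 10.31 against 10.23, 10.74 and 11.06. Neither gene passed (adjusted p = 0.193 and 0.513). The summed linear intensity of the macrophage list was 16161.2 to 18590 in NonTu_AKTCAT_DDC and 28792.2 to 37080.7 in DDC_only. Of 12 genes of injury-associated macrophages 1 was higher and 4 were lower (1 to 3 lower when a single array was left out, 1 without NonTu_AKTCAT_DDC 3), with Cd63, a lysosomal membrane protein, at 11.48, 11.17 and 11.38 against 13.11, 12.94 and 12.74 (-1.59 ± 0.33, adjusted p = 0.00136). None of the 12 was called with slide as a block.

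Chemokine and interferon genes were lower in part. Ccl2, which draws monocytes, was at 5.48, 4.75 and 4.48 against 8.13, 7.09 and 7.42, and was detected on 1 of 3 non-tumoral arrays. All 3 non-tumoral values were below the DDC_only values, and the difference of -2.64 ± 0.35 had adjusted p = 8.44e-06 (-2.72 and 0.0208 with slide as a block). It was 1 of 4 lower genes among 23 chemokines, of which 2 were called without NonTu_AKTCAT_DDC 3 and under median scaling. Of 27 interferon response genes 8 were lower, none was higher and 19 did not pass, with a median of -0.13 that was -0.76 without DDC_only 2, -0.47 without NonTu_AKTCAT_DDC 1 and -0.04 to -0.22 without any other array. There were 4 to 9 lower when a single array was left out (4 without NonTu_AKTCAT_DDC 3 or DDC_only 3, 5 without NonTu_AKTCAT_DDC 2 or DDC_only 1) and none with slide as a block. Gbp2, a guanylate-binding protein, was at 7.55, 7.61 and 7.36 against 9.55, 9.59 and 9.40 (-2.01 ± 0.51, adjusted p = 0.00754). Rsad2, viperin, was at 7.53, 8.63 and 7.01 against 12.21, 7.08 and 12.04, so that DDC_only 2 lay among the non-tumoral arrays; without that array the difference of -2.72 was -4.40, and without NonTu_AKTCAT_DDC 3, DDC_only 1 or DDC_only 3 it did not pass (adjusted p = 0.0801, 0.133 and 0.118).

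Of 19 MHC and antigen processing genes 1 was higher and 5 were lower, with 2 lower without NonTu_AKTCAT_DDC 3, 3 without NonTu_AKTCAT_DDC 2, DDC_only 2 or DDC_only 3, and 3 under median scaling. Tapbp, which loads peptides on class I molecules, was at 6.19, 5.97 and 5.21 against 8.31, 8.33 and 8.16, a difference of -2.48 ± 0.42 (adjusted p = 0.000205, and -1.24 and 0.429 with slide as a block). B2m, the shared light chain of class I, lay between 14.31 and 14.53 on all 6 arrays. Of 30 complement and coagulation genes 1 was higher, 10 were lower and 19 did not pass, with 4 lower without NonTu_AKTCAT_DDC 3 or DDC_only 2, 5 without NonTu_AKTCAT_DDC 1 and 3 under median scaling. Kng2, a kininogen, was at 11.20, 10.94 and 10.47 against 12.97, 12.86 and 12.58, a difference of -1.93 ± 0.27 (adjusted p = 1.68e-05), and together with C8b it was called with slide as a block. C8b differed by -0.92, and by -1.92 with the block, and was not called without NonTu_AKTCAT_DDC 1 or 3 or DDC_only 1 or 2 (adjusted p = 0.0663 to 0.14).

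Several cell types and programmes gave few calls. Beside 8.95% of all genes higher and 6.38% lower, few calls can be looked for in lists this short, and nothing is read from the counts about these cells. Of 20 tested genes of biliary and progenitor cells, which a DDC diet is known to expand, 1 was higher (Lad1, by 1.70 ± 0.43) and 19 did not pass, with a median of -0.16. None was called with slide as a block. The summed linear intensity of the biliary list was 7809.19 to 8903.21 in NonTu_AKTCAT_DDC and 10186.8 to 11488.2 in DDC_only. Of 13 T and NK cell genes only Prf1, perforin, was called, at 8.46, 9.74 and 10.17 against 6.86, 6.71 and 7.60 (2.40 ± 0.48, adjusted p = 0.000979, and 1.37 and 0.522 with slide as a block). None of 13 G2/M, 7 B and plasma cell or 7 erythroid genes was called, and 1 of 24 endothelial and 1 of 14 neutrophil genes was lower. Values that did not pass do not show that the groups were alike.

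**Figure D3:**
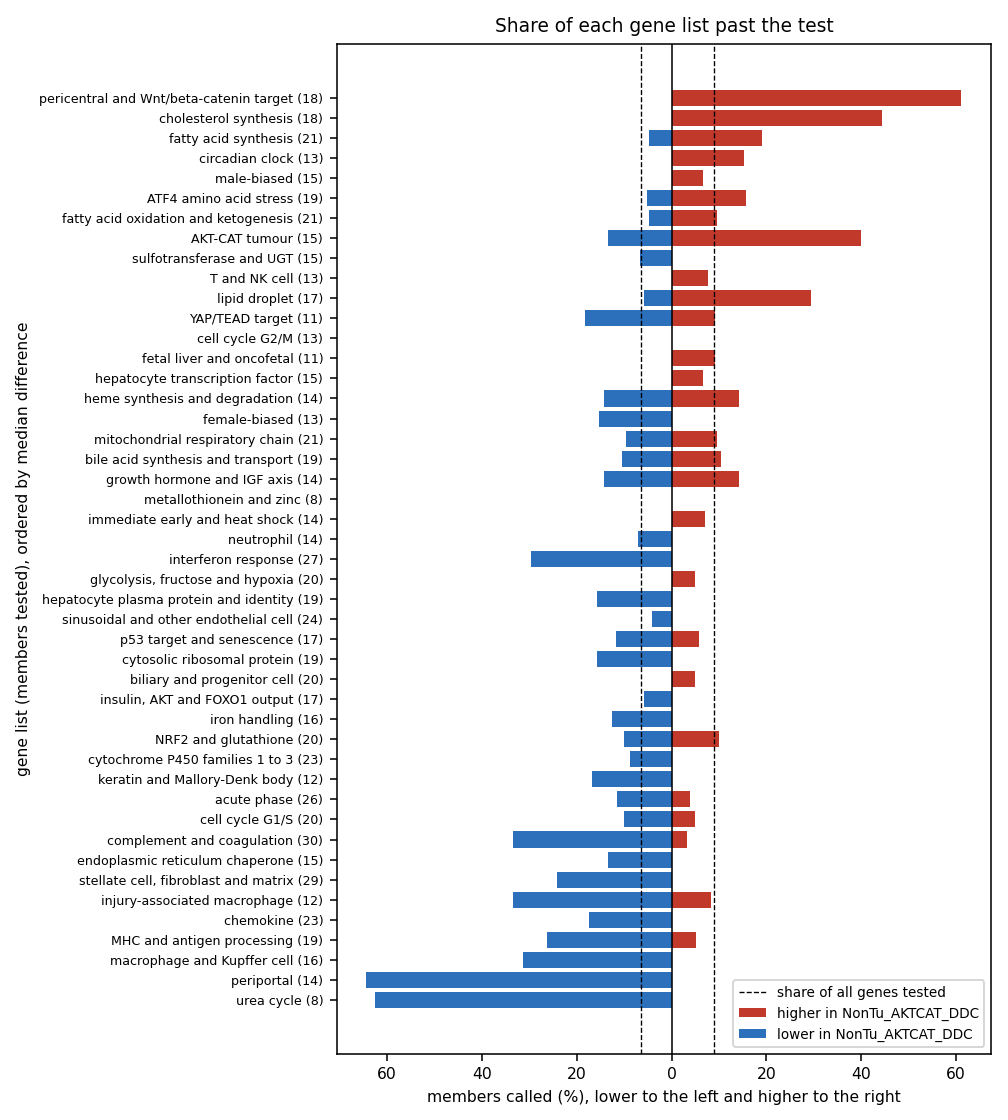
Share of each gene list (%, horizontal axis) called higher (right) or lower (left) in NonTu_AKTCAT_DDC, with the share of all genes as dashed lines. The pericentral and Wnt list stands at 11 of 18 higher and the periportal list at 9 of 14 lower.

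Counts in the lists of detoxification, heme and bile acid genes were small in both directions, beside 8.95% of all genes higher and 6.38% lower, and nothing is read from them about these lists. Of 20 NRF2 and glutathione genes 2 were higher and 2 were lower, with Gstm3, a glutathione transferase, at 9.30, 8.47 and 9.96 against 7.22, 6.55 and 7.64 (2.11 ± 0.34, adjusted p = 0.00011) and Gstp1 at -1.23 (adjusted p = 0.0114, and 0.11 without NonTu_AKTCAT_DDC 3 or 0.0535 without DDC_only 1). Slc7a11, the cystine carrier, was at 4.74, 4.38 and 4.60 against 8.50, 4.49 and 7.13, so its groups overlapped at DDC_only 2. It was not detected on any non-tumoral array and lay at least 2.91-fold lower (adjusted p = 0.0131), a call lost without DDC_only 1 or 3 (adjusted p = 0.151 and 0.0528). Heme genes gave 2 higher and 2 lower of 14 (none lower without NonTu_AKTCAT_DDC 3 or DDC_only 1, 1 and 1 without NonTu_AKTCAT_DDC 2 or DDC_only 2, 4 and 1 under median scaling), and among the lower ones was Fech, the ferrochelatase whose product DDC is known to turn into an inhibitor of that enzyme, at 6.04, 6.38 and 5.27 against 7.61, 6.68 and 7.13 (-1.25 ± 0.34, adjusted p = 0.0113, and 0.0969 without NonTu_AKTCAT_DDC 3 or 0.07 without DDC_only 1). Alas1, which opens heme synthesis, differed by 0.06 ± 0.33. Of 19 bile acid genes 2 were higher, among them the bile acid receptor Nr1h4 (0.68, adjusted p = 0.00302), and 2 were lower, among them the exporter Slc51b (-1.54, adjusted p = 0.000137). None of these was called with slide as a block.

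Over all genes, 1650 were called, 963 higher and 687 lower in NonTu_AKTCAT_DDC, and 1536 of them had groups that did not overlap, as had 31.7% of all genes. Slide as a block gave 61 calls, 33 higher and 28 lower, of which 59 were among the 1650. Of the 1650 differences 1643 kept their sign and 7 turned, and the median ratio of the blocked to the unblocked difference was 0.819. The median standard error rose from 0.256 to 0.403. At an unadjusted p under 0.05, 777 of the 1650 passed with the block. In the tumours with DDC, 133 genes differed by at least 1 log2 unit between slides 2 and 1, and 715 of the 963 higher genes and 485 of the 687 lower genes had a tumour difference between slides of the same sign. The share of all genes with each sign is not given here. Over all genes tested, the tumour difference had a Pearson correlation of 0.287 with the unblocked difference. The blocked difference is the unblocked one less the tumour difference, so large differences mostly keep their sign by construction. The part of the slide in each difference was not tested beyond this block.

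Genes called with slide as a block held further named functions, chosen after their values were seen. Defb1, a beta-defensin, differed by -2.64 (-3.13 with slide as a block) and Vcam1, an adhesion molecule of activated endothelium, by -2.05 (-2.84), and both were called either way. Defb1 was detected on 1 of 3 non-tumoral arrays. Tff3, a trefoil peptide of mucous epithelia, was not detected on any NonTu_AKTCAT_DDC array and lay at least 3.08-fold lower (adjusted p = 2.8e-05). Mas1, an angiotensin receptor, differed by 2.83 (2.43) and Igf2r, the receptor that clears IGF2, by 1.49 (1.81). Sema3b, a semaphorin, was not detected on any DDC_only array and lay at least 4.28-fold higher (adjusted p = 7.15e-07). The 2 genes called with the block alone were H2-D1 (-0.51 without and -1.52 with the block) and Rec8, which was not detected on any DDC_only array and lay at least 2.07-fold higher in NonTu_AKTCAT_DDC, with adjusted p = 0.247 without the block and 0.0222 with it. Mup2, a major urinary protein, was at 7.56, 12.32 and 11.62 against 6.51, 6.09 and 7.65, so that 1 non-tumoral array lay within the DDC_only range, and its difference of 3.75 was 1.71 with slide as a block (adjusted p = 0.632).

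**Figure D4:**
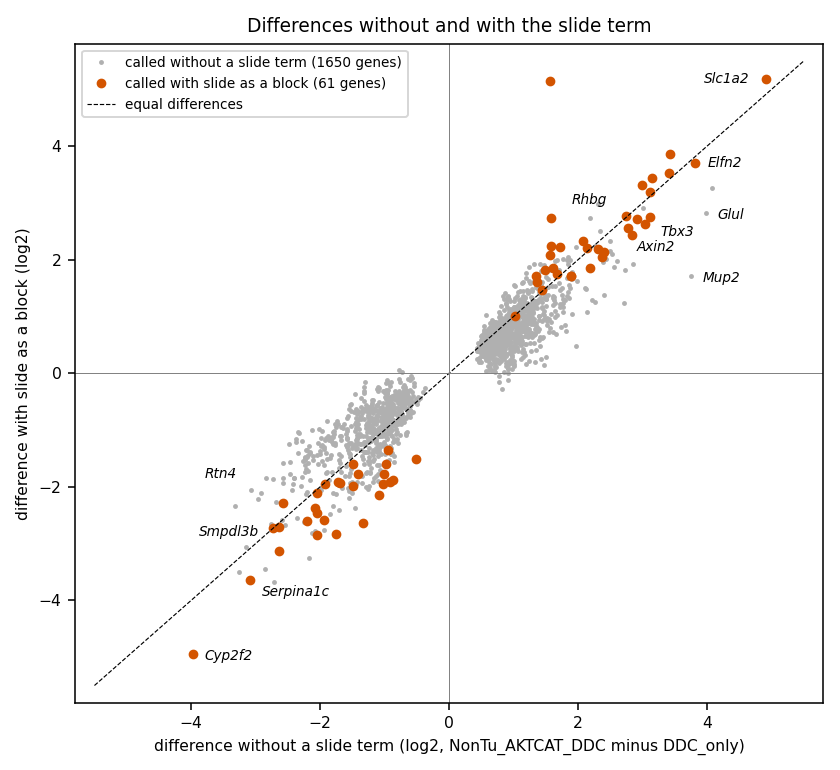
Difference without a slide term (horizontal axis, log2) against the difference with slide as a block (vertical axis, log2), for the genes called either way. Slc1a2 and Cyp2f2 lie near or beyond the line of equal differences, while Glul and Mup2 are smaller with the block.

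The difference between AKT-CAT non-tumoral liver and control liver under DDC was set against the same difference without DDC (NonTu_AKTCAT minus PBS_only), as a contrast of the same fit. Of all genes, 1636 (15.2%) were called, 932 higher (8.66%) and 704 lower (6.54%), and slide as a block gave 59. That blocked contrast also crosses slide 3, which is linked to slide 2 by 1 untreated AKT-CAT tumour array against 3, so its slide effect rests on a single array of slide 3. Median scaling in place of quantile normalization gave 2137 higher and 305 lower calls, as it moved the median of all genes from 0.08 to 0.37. The largest positive values were those of Ciart, a repressor of the clock (5.30 ± 0.76), Mfsd2a, a lipid carrier induced by fasting (4.87 ± 0.93), Cyp4a14, a fatty acid hydroxylase (4.70 ± 1.15), and Slc1a2 (4.54 ± 0.99). The largest negative values were those of S100a8, a calcium-binding protein of neutrophils (-5.21 ± 0.97), Rbbp7 (-4.83 ± 0.90), Lum (-4.82 ± 0.82) and Lcn2, a siderophore-binding protein of injured liver (-4.52 ± 0.78). The adjusted p of these 8 was 0.00656 or less, and with slide as a block those of Ciart (6.76, adjusted p = 0.00195) and Lum (-5.20, adjusted p = 0.0369) were called.

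The values behind these contrasts lay in both arms. S100a8 was at 10.61, 10.53 and 8.37 in NonTu_AKTCAT and at 6.01, 6.06 and 6.96 in PBS_only, while it averaged 5.66 in NonTu_AKTCAT_DDC and 7.39 in DDC_only. It was thus above its control without DDC and had the lower mean with DDC, where the difference did not pass (adjusted p = 0.0835). Lcn2 was at 12.45, 13.93 and 11.55 in NonTu_AKTCAT and at 8.46, 8.80 and 9.99 in PBS_only, and averaged 12.53 and 13.49 in the groups with DDC (adjusted p = 0.251 between them). Ciart was at 5.02, 6.32 and 5.19 in NonTu_AKTCAT and at 8.59, 8.82 and 9.39 in PBS_only, and averaged 7.45 in NonTu_AKTCAT_DDC and 5.58 in DDC_only. Of 13 clock genes 7 were called higher in this contrast, 1 with slide as a block and 4 without NonTu_AKTCAT_DDC 3, NonTu_AKTCAT 1 or NonTu_AKTCAT 3, and the labels give no time of day.

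Other lists also differed between the arms. Of 29 stellate cell and matrix genes 15 were lower and none was higher (4 lower with slide as a block, 4 under median scaling, 9 without DDC_only 2, 7 without NonTu_AKTCAT 3 and 10 without PBS_only 3). The median difference of this list from control liver was 0.92 without DDC and -0.37 with DDC. Of 13 G2/M genes 8 were lower and none was higher, with a median of -2.18, none called with slide as a block, 4 under median scaling and 5 without NonTu_AKTCAT_DDC 2, DDC_only 2, DDC_only 3 or NonTu_AKTCAT 3. Here the median difference from control liver was 1.77 without DDC and 0.18 with DDC. The lower G2/M values of this contrast are thus no fall under DDC, where no member was called. Of 18 pericentral and Wnt genes 6 were higher and 1 was lower, and of 14 periportal genes 6 were lower, in both cases with none called with slide as a block. Under median scaling 10 pericentral and Wnt genes were higher and none was lower, while 2 periportal genes were higher and 1 was lower, so the periportal direction rests on the scaling here. Axin2 had a value of 2.04 ± 0.52 in this contrast (adjusted p = 0.00859) and Tbx3 of 1.41 ± 0.45 (adjusted p = 0.0326), since both were higher in AKT-CAT liver without DDC too, by 1.0 and 1.71. Fatty acid synthesis genes were higher for 8 of 21 and lower for none, with 5 higher without NonTu_AKTCAT_DDC 1, DDC_only 2, DDC_only 3 or NonTu_AKTCAT 2, 12 without NonTu_AKTCAT 3 and 15 under median scaling.

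**Figure D5:**
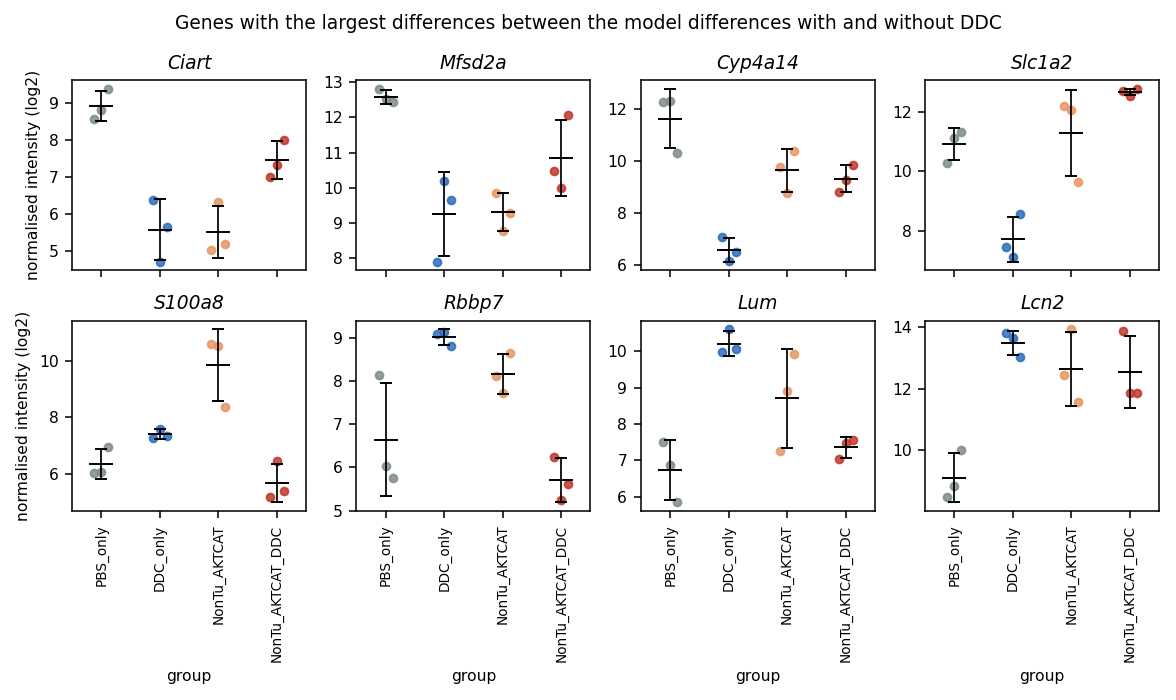
Normalised intensity (log2) of the 8 genes with the largest differences between the arms with and without DDC, in 4 groups, each point 1 array, with the group mean and SD in black. The mean of S100a8 in AKT-CAT liver is 5.66 against 7.39 in its control with DDC and lies above its control without DDC, while the Ciart means run the other way.

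Of the driver genes, Ctnnb1, which encodes beta-catenin, differed by 0.12 ± 0.20 (adjusted p = 0.738), and its second probe gave -0.58. Akt1 was detected on 0 of 3 NonTu_AKTCAT_DDC and 1 of 3 DDC_only arrays. Whether these probes read the introduced genes is not given in the sources used here, so neither gene checks the label. Xist, the RNA of the inactive X chromosome, was detected on all 6 arrays and differed by 0.35 ± 0.33 (adjusted p = 0.522). The Y-linked Uty was detected on 0 of 3 NonTu_AKTCAT_DDC and 3 of 3 DDC_only arrays, at least 1.22-fold lower, which did not pass (adjusted p = 0.0848). Of 5 Y-linked genes listed, 4 were on the array, and only Uty passed the detection filter. Its linear intensity was low in both groups, 27.3 to 31.9 against 35.4 to 61.6, so no difference in sex is read from it. The labels give no sex.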

How the data were processed

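Total RNA from mouse liver was amplified and labelled as biotin cRNA for Illumina bead arrays, per the labels' protocols. The intensity of each probe was deposited by the authors without normalization. The submitters' processing notes name GenomeStudio, with no version. The detection p-value of each probe was deposited by the authors beside them. Detection columns carry no sample name and were tied to signals by their order (0 steps out of order with their own column, at least 7714 with any other). Negative values made up 24.8% to 30.2% of an array's intensities, which shows that some background subtraction came first (how is not given in the sources used here). A further table of intensities deposited by the authors served as an alternative.

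Background correction and quantile normalization were done with limma's neqc (offset 16). Probes with detection p under 0.05 on at least 3 of 36 arrays were kept (14754 probes naming 1 gene), the brightest probe of each of the 2834 genes with several was taken, which gave 10765 genes. A single limma fit held all arrays in 10 groups, tested two-sided with Benjamini-Hochberg adjustment over all genes. Alternatives changed slide, scaling, background, filter, probe rule, variance trend, arrays and replicate block. Replicate numbers did not pair the samples (correlations 0.357, -0.0065 and 0.358). The fit was tested on simulated data.

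Genes named were the 12 largest rises and 12 largest falls among called genes with a standard symbol and no overlap between groups, up to 6 called members of each list by size and up to 3 that did not pass by level (lists of at most 12 genes may be named whole), the 4 largest rises and falls of the difference between the arms, and the driver and sex-linked genes. The comparison, the 52 gene lists (864 of 976 genes on the array) and the rule were chosen with earlier results of these data known. Tools were R 4.3.3, limma 3.58.1, Python 3.11.15, numpy 2.4.6, pandas 2.3.3 and matplotlib 3.10.9.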

Additional observations from a re-analysis of the deposited data

Results flagged for a closer look

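The difference between AKT-CAT non-tumoral liver and control liver was unlike with and without DDC, by a test of that contrast in the limma fit, for these genes among the largest on the log2 scale. Ciart stood at 5.30, Mfsd2a at 4.87, Cyp4a14 at 4.70 and Slc1a2 at 4.54. S100a8 stood at -5.21, Rbbp7 at -4.83, Lum at -4.82 and Lcn2 at -4.52. Each of the 8 stayed called when any single array was left out. Between the groups with DDC, the difference of Mfsd2a did not pass (adjusted p = 0.093).

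Among the 4 tumour arrays with DDC, 1 Mogat2 value lay far from the others, with a gap to its neighbour of 0.852 of the group's range, above Dixon's critical value for 4 samples. Chance gives such a gap in about 1 in 20 groups. The gap was looked for in all 24 largest rises and falls, so a single one is not read as a finding.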

How the results depend on the processing

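Beside the 1650 calls, slide as a fixed block gave 61 (59 of them shared), and the same block on the DDC-treated AKT-CAT and DDC_only arrays alone, added after seeing the data, 108 (99 shared). A minimum of 2-fold left 822. Leaving out 1 array gave 941 (without DDC_only 2) to 1587 calls, with 1078 without NonTu_AKTCAT_DDC 2 and 1027 without NonTu_AKTCAT_DDC 3. The replicate number as a block gave 1670 calls, 1590 of them shared, and 1652 for the difference between the arms. For that contrast slide as a fixed block gave 59, the compared groups alone 994, and leaving out 1 array 987 (without PBS_only 3) to 1964. For these 3 kinds of setting the construction leaves fewer arrays or more terms. Counts of 1269 to 1877 were given by the other settings for the comparison under DDC. With the mean of all probes of a gene the difference turned for Acadl (-0.4316), Acadm (-0.9118), Hp (-0.761), Hspa8 (-2.1859), Insig1 (-0.5828), Shmt2 (-0.7236) and Uros (-0.0964), whose probes differ. All 24 largest rises and falls stayed called, except 12 with slide as a fixed block, 7 with that block on the DDC arrays alone, and Cyp2b10 without 3 single arrays. Signal near background limits Glul, Elfn2, Mogat1, Sema3b and Rec8 in DDC_only, and Tff3, Slc7a11 and Uty in NonTu_AKTCAT_DDC, to bounds.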
